A study of Mus musculus with 5 samples.

Results

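The splicing factors and heterogeneous nuclear ribonucleoproteins (hnRNPs) described here are the array spots that the platform annotation pairs with exactly 1 gene symbol beginning with Hnrnp, Snrp, Srsf, Sf3a or Sf3b. They made up 103 of the 32042 spots with 1 gene, and 51 of the 19087 genes. There were 20 hnRNP genes on 46 spots, 12 genes of the small nuclear ribonucleoproteins (snRNPs) on 21, 10 serine/arginine-rich (SR) protein genes on 22, and 9 SF3 genes on 14. No measured value was used to choose them.

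Introns are removed from new transcripts by the spliceosome, which is assembled from snRNPs, particles of a small RNA and its proteins. The SF3a and SF3b proteins belong to the U2 particle, which recognises the branch point of the intron. SR proteins mostly favour the use of nearby splice sites, and many hnRNP proteins oppose it, so the balance of both classes shapes alternative splicing, which is extensive in neurons.

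RNA came from the nucleus accumbens, the part of the ventral striatum that receives midbrain dopamine, of male C57BL6 mice that had undergone conditioned place preference, a test of how strongly an animal returns to a drug-paired place. The cocaine mice received 15 mg/kg on days 2, 3 and 4 and had low preference scores, while the saline mice received saline on the same days. Treatment and low score therefore cannot be told apart, and the age of the mice is not given in the sources used here. Each of 5 long-oligonucleotide arrays carried 1 cocaine and 1 saline mouse, with cocaine RNA in the dye Cy5 on 3 arrays (replicates 1 to 3) and in Cy3 on 2 (replicates 1 and 2). The cocaine RNAs of Cy5 replicates 1 and 2 bear names that differ by a suffix alone, and whether they came from 1 mouse is not stated. The p-values measure the spread between these arrays, part of which may be technical.

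The deposited values are log2 ratios between both channels, and it is not stated whether cocaine or saline is the numerator. A negative value is called the denominator side and a positive one the numerator side, and the design text words the comparison as cocaine against saline. Cocaine-in-Cy5 replicates 1 and 3, of the same dye orientation, correlated at r = -0.32 over all features, whereas cocaine-in-Cy3 replicates 1 and 2 correlated at 0.89. With the trend of the ratio over spot brightness removed, as described further on, these were -0.13 and 0.54 over gene spots above background. Cocaine-in-Cy5 replicates 2 and 3 correlated negatively with both cocaine-in-Cy3 arrays, at -0.73 to -0.88 over all features and -0.12 to -0.71 with the trend removed. For cocaine-in-Cy5 replicate 1 these were 0.47 and 0.38 over all features, and -0.13 and 0.04 with the trend removed. The direction is thus not settled, and values with replicate 1 turned, and with the dye contrast read as treatment, are given further on. On cocaine-in-Cy5 replicate 1 the recovered signal above background was 46.7% of that on replicate 3, so results that rest on it are also given without it. All 9 measured marker genes of medium spiny neurons, the main accumbens neurons, had a spot above background, against 0 of 4 of cortical glutamatergic neurons, 0 of 5 of choroid plexus and 0 of 4 of meninges. Of the glial markers, 4 of 6 astrocyte, 4 of 5 oligodendrocyte and 2 of 5 microglial genes did, as did 1 of 5 endothelial and 3 of 4 blood genes. In such bulk tissue, fewer cells of a type and less RNA per cell cannot be told apart.

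Transcripts of these splicing genes were measured above background more often than those of the average gene. A spot counted as above background when the brightness recovered from its ratios exceeded 7.5 on the log2 scale of scanner counts. Of the 51 genes, 38 (74.5%) had such a spot, against 22.3% of all genes on the array. By spots the share was 49 of 103 (47.6%), against 15.5% of all gene spots. With thresholds of 7 and 8 the gene shares were 78.4% and 62.7%, against 30.8% and 16.1% of all genes. Just inside the threshold of 7.5 lay spots of Hnrnpr (7.57), Snrpd3 (7.61) and Snrpn (7.68 and 7.71), and just outside lay spots of Sf3b1 (7.35 and 7.21), Srsf5 (7.28) and Srsf2 (7.24).

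The share differed between the groups. For hnRNP genes it was 17 of 20, for snRNP genes 9 of 12, for SF3 genes 7 of 9 and for SR genes 5 of 10. The hnRNP genes without a spot above background were Hnrnpc, a uridine-binding core hnRNP with 3 spots, Hnrnph3 and Hnrnpul2. In the snRNP group they were Snrpa1, of the U2 particle, and Snrpb and Snrpe, 2 proteins of the Sm ring that surrounds the small RNA. In the SR group they were Srsf3, Srsf6, Srsf10 (4 spots), Srsf11 and Srsf12, and in the SF3 group Sf3a2 and Sf3b1, the protein that holds the branch point. For these 13 genes the arrays give only a bound, and nothing can be read from them on the treatment. Among 109 other splicing genes with a spot, 71 (65.1%) were above background.

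Promoter windows from RefSeq (assembly GRCm38.p6, 250 bases before to 50 after the gene start) were available for 45 of the 51 genes. They describe the genes outside the annotation used to choose them. The array genes set beside the members include genes without a spot above background. The motif CCGGAAG, the core bound by ETS factors, was in 15 of 45 windows (33.3%) on either strand, against 12.9% of 15306 array genes with a window. The GC box GGGCGG was in 31 (68.9%, against 50.8%), the CCAAT motif in 22 (48.9%, against 38.8%) and TATAAA in 6 (13.3%, against 12.0%). The median G and C content was 60.0%, against 57.7%. A match describes letters only and says nothing of binding. The windows below are those of the gene with the brightest spot in each group, shown so that these motifs can be seen in place, with matches to the ETS core, the GC box or the CCAAT motif, on either strand, in capitals and the rest in lower case. In Srsf5 the last GC box shares a base with the ETS core that follows it. Hnrnpk lies at chr13:58402068-58402367 on the minus strand, Snrpg at chr6:86371290-86371589, Srsf5 at chr12:80945249-80945548 and Sf3b6 at chr12:4817358-4817657, all 3 on the plus strand.
Hnrnpk: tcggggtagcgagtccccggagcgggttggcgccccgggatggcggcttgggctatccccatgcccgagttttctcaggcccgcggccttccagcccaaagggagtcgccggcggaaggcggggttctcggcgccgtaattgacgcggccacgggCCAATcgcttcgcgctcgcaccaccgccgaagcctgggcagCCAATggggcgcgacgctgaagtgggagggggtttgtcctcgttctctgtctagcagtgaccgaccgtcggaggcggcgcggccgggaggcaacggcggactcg
Snrpg: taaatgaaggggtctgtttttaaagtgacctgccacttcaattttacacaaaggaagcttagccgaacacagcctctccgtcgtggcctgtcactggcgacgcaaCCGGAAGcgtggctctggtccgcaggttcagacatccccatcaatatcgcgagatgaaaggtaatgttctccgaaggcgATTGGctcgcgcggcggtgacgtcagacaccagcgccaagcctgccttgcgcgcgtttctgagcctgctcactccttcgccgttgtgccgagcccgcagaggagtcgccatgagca
Srsf5: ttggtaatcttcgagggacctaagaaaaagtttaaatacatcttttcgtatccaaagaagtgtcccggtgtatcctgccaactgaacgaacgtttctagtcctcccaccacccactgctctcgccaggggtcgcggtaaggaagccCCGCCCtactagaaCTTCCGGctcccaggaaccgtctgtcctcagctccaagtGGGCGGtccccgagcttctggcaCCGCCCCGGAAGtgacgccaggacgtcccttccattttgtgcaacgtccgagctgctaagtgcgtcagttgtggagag
Sf3b6: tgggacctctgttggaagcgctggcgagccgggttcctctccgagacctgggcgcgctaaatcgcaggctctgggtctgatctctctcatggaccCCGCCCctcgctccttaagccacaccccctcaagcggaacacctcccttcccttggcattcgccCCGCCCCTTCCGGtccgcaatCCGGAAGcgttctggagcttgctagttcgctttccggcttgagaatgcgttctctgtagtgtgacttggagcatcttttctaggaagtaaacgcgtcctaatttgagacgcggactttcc

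On the deposited ratios no member passed the test between the treatments. Of 43790 features 0 passed an adjusted p of 0.05 in limma (lowest adjusted p 0.731), and 998 (2.28%) had an unadjusted p under 0.05, 1.1% on the denominator and 1.18% on the numerator side. Among the 103 member spots that was 1 (0.971%), a spot of Srsf5 with a log2 ratio of -0.89 ± 0.26 (SE, n = 5 arrays, limma adjusted p = 0.731). The members' median log2 ratio was -0.30, against -0.03 over all gene spots, with 86 of 103 spots (83.5%) on the denominator side, against 64.5% of gene spots and 59.4% of all features. With cocaine-in-Cy5 replicate 1 turned, the members' median was 0.14, against 0.20 over all features. Without that array the median was -0.10, and 23 members (22.3%) had an unadjusted p under 0.05, against 5.57% of all features, with 0 passing the adjusted threshold in limma.

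This offset went with brightness. Member spots above background had a median of -0.54 and the others -0.04, and all gene spots above background had -0.45. Brighter spots had lower ratios on both cocaine-in-Cy3 arrays, and higher ratios on cocaine-in-Cy5 replicates 2 and 3. On cocaine-in-Cy5 replicate 1 the median over all features fell to -1.78 at a brightness of 9 to 11, and was -1.38 above 11. Member spots above background had array medians of -1.67, -0.20 and 0.19 on cocaine-in-Cy5 replicates 1 to 3, and of -0.85 and -0.26 on cocaine-in-Cy3 replicates 1 and 2. The same medians over all gene spots above background were -1.51, -0.20, 0.12, -0.61 and -0.11. The members thus ran in the direction of each array's own course with brightness. Their medians lay farther from 0 than those of all gene spots on every array except cocaine-in-Cy5 replicate 2. The deposited ratios of the members cannot be read apart from that course. Of the spots not above background with the smallest p, Srsf3, the smallest SR protein, had -0.34 ± 0.13 (ratios -0.98, -0.58, -0.35, -0.30 and 0.21), and Sf3b3 had -0.37 ± 0.14 (ratios -1.03, -0.50, -0.25, -0.35 and 0.05; SE, n = 5, in the array order above). As these spots lay below the brightness threshold, neither value is read as a difference between the treatments.

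**Figure D1:**
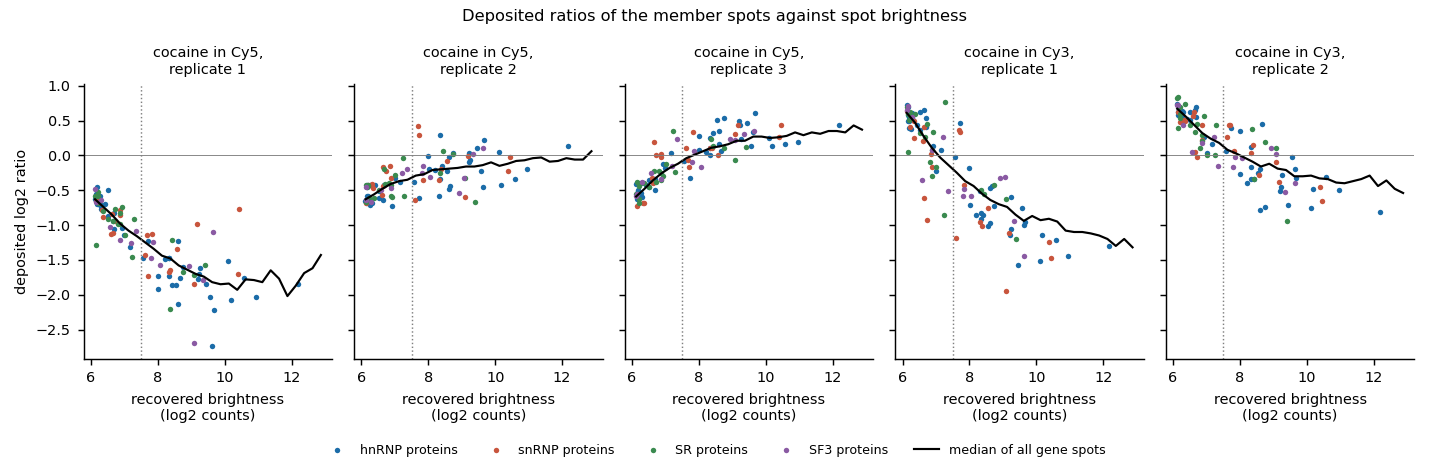
Deposited log2 ratio (vertical) of the 103 member spots against recovered brightness in log2 scanner counts (horizontal), 1 panel per array, coloured by protein group. The black line is the running median of all gene spots and the dotted line the threshold of 7.5. Members lie along the line of each array, which ends low on cocaine-in-Cy5 replicate 1 (member median above the threshold -1.67) and high on replicate 3 (0.19).

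Each array's course with brightness was therefore removed by loess over the 4957 gene spots above background, and the 49 member spots among them were tested again. Again 0 of 4957 spots passed (limma, lowest adjusted p 0.624), while 373 (7.52%) had an unadjusted p under 0.05. Of the members 6 (12.2%) did, 5 on the denominator side (4.34% of all spots) and 1 on the numerator side (3.19%). That count depends on single arrays: it was 9 without cocaine-in-Cy5 replicate 1 (18.4%, against 10.1% of all spots), 2 without replicate 2 (4.08%, against 3.21%) and 1 without cocaine-in-Cy3 replicate 1 (2.04%, against 0.928%). The share over all spots moved with it in these cases. Without cocaine-in-Cy5 replicate 3 the count stayed at 6 (12.2%), against 10.7% of all spots. It also stayed at 6 without cocaine-in-Cy3 replicate 2 (12.2%, against 5.27%). The median trend-removed log2 ratio of the members was -0.07, against 0.00 over all spots tested, and 33 of 49 (67.3%) lay on the denominator side, against 50.0%. By gene, 24 of 38 lay there, 12 on the numerator side and 2, Hnrnpab and Hnrnpdl, had spots on opposite sides.

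Under the reading of the sign used here, the intervals bound the size of a difference relative to spots of like brightness. The median SE of a member was 0.09, and the 95% interval of all 49 spots lay within a 2-fold difference in either direction (99.7% of all spots tested). For 44 of them (89.8%, against 94.9%) it lay within 1.5-fold. The 5 others were both spots of Snrpd3, both of Snrpn and the spot of Srsf5, named here after their values were seen. These intervals cover the spread between arrays, not the uncertainty of the recovered brightness, and a signal that still holds background understates a ratio. They do not hold for the dye reading given further on, and a shift shared by all spots was removed with the trend. The arrays whose cocaine RNA names differ by a suffix were treated as independent.

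**Figure D2:**
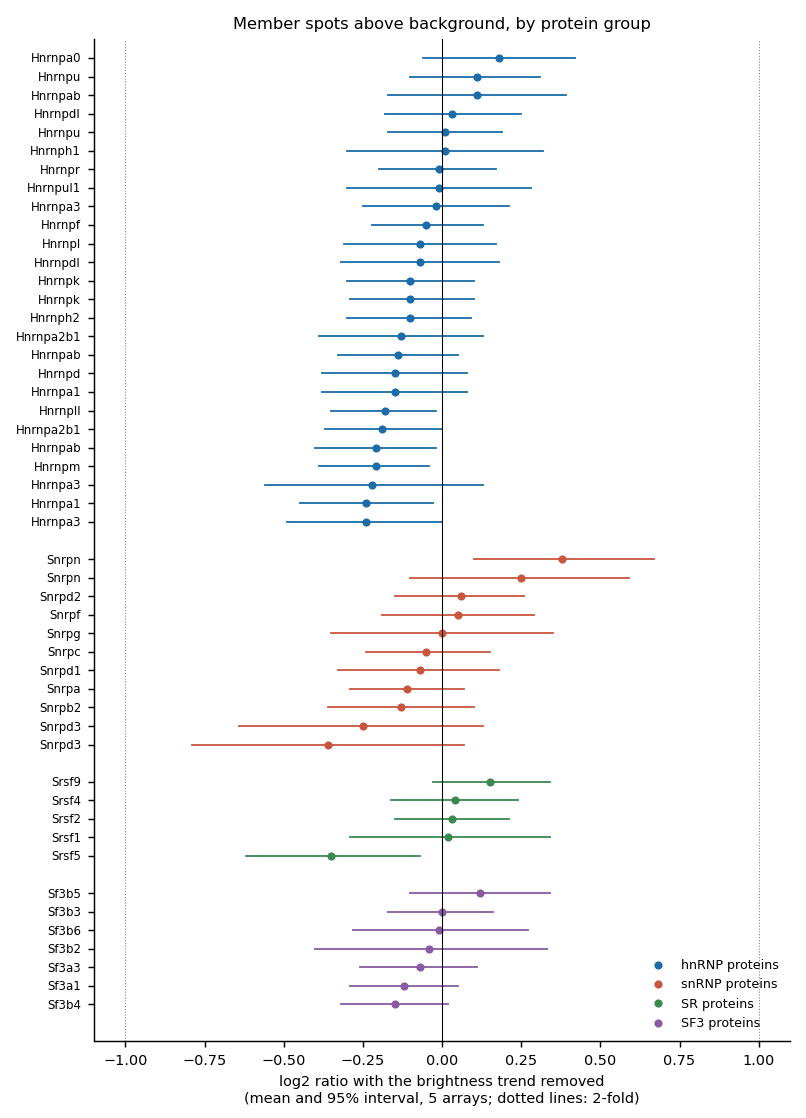
Trend-removed log2 ratio (horizontal, mean and 95% interval over 5 arrays) of each of the 49 member spots above background, grouped by protein class and sorted within it. All intervals lie between the dotted 2-fold lines, and 33 of the 49 means are on the denominator side (left).

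The hnRNP proteins lay on the denominator side in 20 of 26 spots, with a median of -0.10 and a range from -0.24 to 0.18. The array medians of the group were -0.16, 0.02 and 0.04 on cocaine-in-Cy5 replicates 1 to 3 and -0.22 and -0.14 on cocaine-in-Cy3 replicates 1 and 2, so the median was not on that side on 2 of 5 arrays. The values that follow are trend-removed log2 ratios in that array order.

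Hnrnpm, which binds GU-rich RNA, had -0.26, -0.31, -0.13, -0.21 and -0.17, a mean of -0.21 ± 0.07 (SE, n = 5, limma adjusted p = 0.624). Hnrnpab, a relative of the AU-binding Hnrnpd, had -0.25, -0.12, -0.11, -0.40 and -0.12 on its brightest spot (mean -0.21 ± 0.08). Both spots lay on the denominator side on every array, as did 1 spot of Sf3a1. Such spots made up 3 of 49 members (against 2.8% of all spots), and 0 members lay on the numerator side throughout (2.02% of all spots). Another Hnrnpab spot did not follow: its mean was 0.11 ± 0.12, with -0.52 on cocaine-in-Cy5 replicate 1 and 0.35 on cocaine-in-Cy3 replicate 2.

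Hnrnpa1, a repressor of exon inclusion, had -0.08, 0.25, 0.24, -0.74 and -0.47 on its brighter spot (mean -0.24 ± 0.09). Its mean was 0.13 ± 0.19 (SD, n = 3) with cocaine in Cy5 and -0.61 with cocaine in Cy3. Cocaine-in-Cy5 replicate 1 was on the denominator side, as both cocaine-in-Cy3 arrays were. Only the means of the orientations thus lay on opposite sides for that spot. The other Hnrnpa1 spot above background did not show this, with -0.34, 0.04, 0.20, -0.28 and -0.26. Its close relative Hnrnpa2b1 had 0.29, 0.17, -0.01, -0.59 and -0.46 on its brighter spot (mean -0.19 ± 0.08), lower on both cocaine-in-Cy3 arrays. Its other spot had -0.29, -0.04, 0.37, -0.40 and -0.15, and there the orientations overlapped. Hnrnpa0 ran the other way, with 0.07, -0.34, -0.31, 0.77 and 0.33 (mean 0.18 ± 0.10). Its spot lay close to the brightness threshold, at 7.72 with a posterior SD of 0.62.

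Hnrnpk, which binds runs of cytidine, had -0.16, 0.16, 0.07, -0.10 and -0.36 (mean -0.10 ± 0.09). Hnrnph2, which binds runs of guanosine, had 0.04, -0.24, -0.11, -0.23 and 0.03 (mean -0.10 ± 0.08). The 95% interval of both included 0 (Hnrnpk -0.30 to 0.10, Hnrnph2 -0.30 to 0.09). Hnrnpll, a splicing regulator known from T cells, had -0.02, 0.01, -0.03, -0.36 and -0.35 (mean -0.18 ± 0.07), so its departure from 0 was on the cocaine-in-Cy3 arrays. Hnrnpu, a nuclear scaffold protein, had means of 0.01 and 0.11 on its 2 spots, and Hnrnpl, which binds CA repeats, -0.07.

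**Figure D3:**
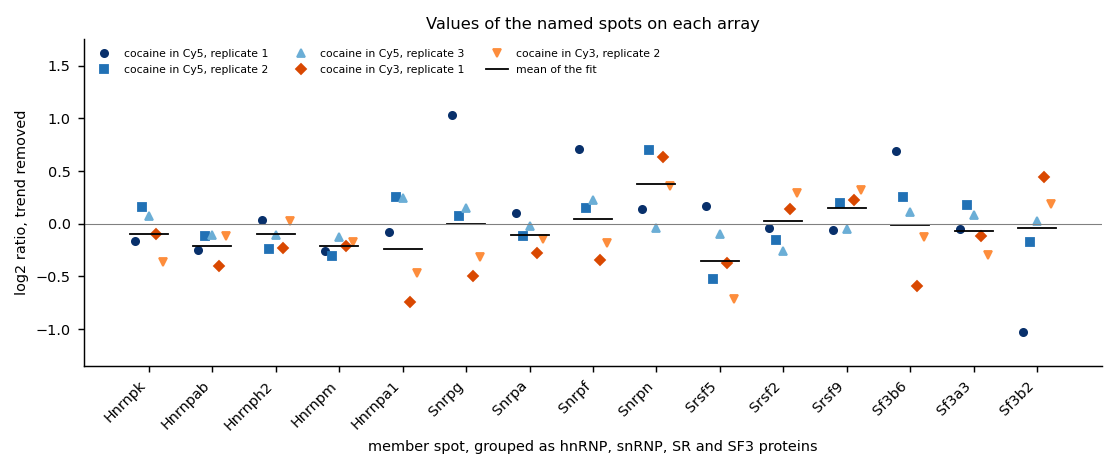
Trend-removed log2 ratio (vertical) of 15 member spots on each of the 5 arrays, with blue symbols for cocaine in Cy5, orange for cocaine in Cy3, and a bar for the mean of the fit. Hnrnpm and Hnrnpab lie below 0 on all arrays. The values of Hnrnpa1, Snrpa, Snrpg, Snrpf, Srsf2, Srsf9, Sf3b6, Sf3a3 and Sf3b2 do not overlap between the dye orientations. Of these spots, Snrpg, Snrpf, Sf3b6 and Sf3b2 lie farthest from 0 on cocaine-in-Cy5 replicate 1. The share of all spots without such overlap was not counted, so it is not read as a trait of these genes. For the dye contrast, 22.3% of all spots and 22.4% of members had an unadjusted p under 0.05 (limma).

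The snRNP proteins held both extremes of the members and no common direction: 6 of 11 spots lay on the denominator side, with a median of -0.05 and a range from -0.36 to 0.38. Snrpn, the Sm-ring protein of neurons, encoded by an imprinted gene, had 0.14, 0.70, -0.04, 0.63 and 0.36 on 1 spot (mean 0.38 ± 0.12, limma adjusted p = 0.624). Its second spot had -0.44, 0.57, -0.14, 0.63 and 0.37 (mean 0.25 ± 0.15). Both spots were thus on the numerator side on 3 arrays, just below 0 on cocaine-in-Cy5 replicate 3, and apart on replicate 1. Both of its spots lay close to the brightness threshold.

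Snrpd3, another Sm-ring protein, had -0.17, -0.43, 0.11, -1.19 and 0.09 on its brighter spot (mean -0.36 ± 0.18). Its second spot above background had -0.16, -0.35, 0.15, -0.95 and 0.17 (mean -0.25 ± 0.16). The large value was on cocaine-in-Cy3 replicate 1 alone, in both spots. On that array Snrpd1, also of the Sm ring, had -0.45 and Snrpb2, of the U2 particle, -0.42, and the group's median was -0.34, against 0.10, 0.00, 0.01 and 0.09 on the other arrays in order.

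Snrpg, of the Sm ring, had 1.03, 0.07, 0.15, -0.50 and -0.32 (mean 0.00 ± 0.15). Snrpf, another protein of that ring, had 0.71, 0.15, 0.23, -0.34 and -0.18 (mean 0.05 ± 0.10). Both were on the numerator side where cocaine was in Cy5 and on the denominator side where it was in Cy3. Snrpa, the U1 particle's A protein with 4 spots, had 0.10, -0.12, -0.02, -0.28 and -0.14 on the spot above background (mean -0.11 ± 0.08), and Snrpc, also of U1, a mean of -0.05. Snrpd2 had a mean of 0.06.

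Of the SR proteins 5 spots of 5 genes could be followed, and 4 lay on the numerator side, with means from 0.02 to 0.15. The exception, Srsf5, a splicing activator, had the lowest SR value, with 0.17, -0.52, -0.10, -0.37 and -0.71 (mean -0.35 ± 0.12, limma adjusted p = 0.624). It lay on the denominator side on 4 of 5 arrays, with a mean of -0.15 ± 0.35 (SD, n = 3) with cocaine in Cy5 and -0.54 with cocaine in Cy3. The other Srsf5 spot, just outside the brightness threshold at 7.28, did not show this on the deposited ratios. Its deposited log2 ratio was 0.01 ± 0.12 (SE, n = 5), against -0.89 on the brighter spot, with -0.91, -0.59, -0.24, 0.76 and 0.44 on the arrays. The low value is thus that of 1 spot. Srsf2, a component of nuclear speckles with 4 spots of which 1 was above background, had -0.04, -0.15, -0.26, 0.14 and 0.29 (mean 0.03 ± 0.08). Srsf9 had -0.06, 0.20, -0.05, 0.23 and 0.32 (mean 0.15 ± 0.08). Srsf1, the best studied SR protein, had a mean of 0.02 and Srsf4 of 0.04.

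The SF3 proteins had a median of -0.04, with 6 of 7 spots on the denominator side but the means between -0.15 and 0.12. Sf3b6, which contacts the branch-point adenosine, had 0.69, 0.25, 0.11, -0.59 and -0.13 (mean -0.01 ± 0.11). Sf3a3 had -0.05, 0.18, 0.08, -0.12 and -0.30 (mean -0.07 ± 0.08). Sf3b2 had -1.03, -0.17, 0.03, 0.44 and 0.19 (mean -0.04 ± 0.16), and without cocaine-in-Cy5 replicate 1 its mean was 0.12. None of these means exceeded its error. Sf3a1 had -0.15, -0.07, -0.22, -0.16 and -0.03 (mean -0.12 ± 0.07), and Sf3b4 the lowest mean, -0.15 ± 0.07. Sf3b5 had the highest, 0.12 ± 0.09.

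Genes with several spots show how far a value belongs to the transcript and how far to the spot. Over 13 pairs of spots of 9 member genes, 2 spots of 1 gene differed on the same array by a median of 0.17 (0.14 over 1052 pairs of all genes), while spots of 2 different member genes differed by 0.26. Whether spots of 1 gene carry overlapping oligonucleotides is not known here. The 2 spots of Snrpd3 took the same course over the arrays, while those of Snrpn differed on cocaine-in-Cy5 replicate 1 (0.14 and -0.44). The 3 spots of Hnrnpa3 all lay on the denominator side on cocaine-in-Cy5 replicates 1 and 2, from -0.96 to -0.22, and had means of -0.22, -0.24 and -0.02.

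**Figure D4:**
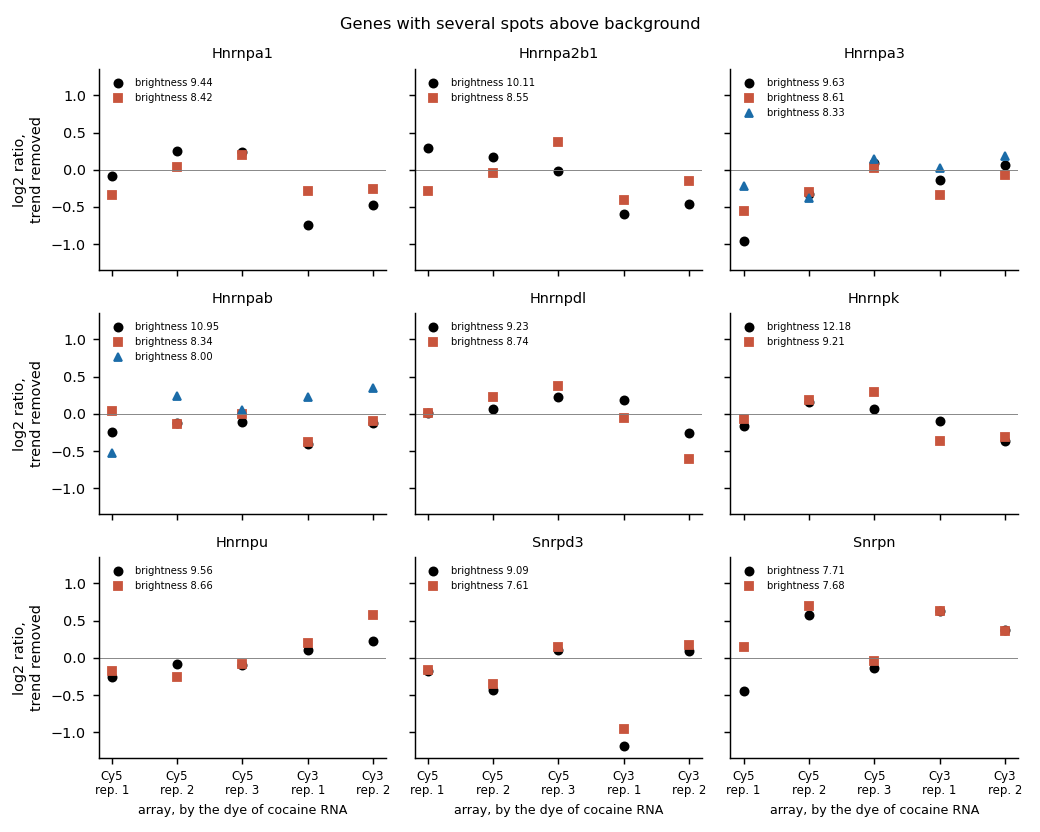
Trend-removed log2 ratio (vertical) on each array (horizontal) for the 9 member genes with several spots above background, 1 symbol per spot, labelled by brightness in log2 counts. Both spots of Snrpd3 are low on cocaine-in-Cy3 replicate 1 (-1.19 and -0.95), and the dimmest Hnrnpab spot parts from its other spots.

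If every array were instead read as Cy5 over Cy3, the dye contrast would be the treatment. The trend-removed data then gave 0 of 4957 spots past an adjusted p of 0.05 (limma, lowest 0.101), with 1104 (22.3%) at an unadjusted p under 0.05 and 11 of the 49 members (22.4%). The members' share was thus close to that of all spots. The members with the smallest p were Hnrnpa2b1 at 0.34 ± 0.08 (limma adjusted p = 0.107), Hnrnpa1 at 0.37 ± 0.09, Hnrnpa0 at -0.37 ± 0.10 and Hnrnpu at -0.28 ± 0.09. Sf3b6 had 0.36 ± 0.11 and Snrpf 0.31 ± 0.10. On the deposited ratios this reading called 34346 of 43790 features (78.4%) and 38 of the 103 members, all negative, and 79.3% of features had an unadjusted p under 0.05. Background spots, which switch sign with the dye, are part of that count.

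Other genes of the splicing machinery, from a list of 115 of which 109 had a spot, showed no common direction. Of 85 spots above background 48 lay on the denominator side, with a median of -0.02. None passed the adjusted threshold in limma, and 8 (9.41%, against 7.52% of all spots) had an unadjusted p under 0.05, 5 of them on the denominator side. Snrnp70, the U1 particle's 70K protein, had 0.29 ± 0.09. Rbm5, a regulator of 3′ splice-site choice, had 0.30 ± 0.09, and Bcas2, of the PRP19 complex, 0.23 ± 0.07. Rbm25, a U1-associated regulator, had -0.20 ± 0.08 (limma adjusted p = 0.624 for each of these 4 spots).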

How the data were processed

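PicoPure-extracted total RNA underwent linear amplification and Cy5 or Cy3 labelling, per the labels. Agilent Feature Extraction was used, per the submitters' processing notes. Its version is not given in the sources used here, nor is the normalization. The deposited table holds log2 ratios between channels for 44290 features. The 500 that were 0 on all arrays were left out.

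In the 3 columns written to 15 digits, 99.99% of values were exact log2 fractions of whole counts or steps of 0.5 (relative tolerance 2e-14). Spot brightness was recovered from these fractions, weighing the common factor over the 3 arrays (lowest signal 35 counts, chance of a step of 0.5 0.2). These 3 arrays were the cocaine-in-Cy5 replicates. The above-background call, and the trend removed on both cocaine-in-Cy3 arrays, thus rest on brightness from arrays of the opposite dye orientation. Between 7 and 7.5, 2.90% of features kept background ratios, and between 7.5 and 8, 0.20%. The recovered brightness of a single bright spot is uncertain by about 0.48 (median posterior SD, log2). Of 238 strong features without a gene, 184 switched sign with the dye and 0 kept 1 sign, so the dye-swapped arrays were taken as already turned by the depositors.

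Each spot was tested with limma 3.58.1 in R 4.3.3 (lmFit, eBayes, treatment mean plus dye orientation, Benjamini-Hochberg over all spots tested, threshold 0.05), on deposited ratios and after loess (span 0.3) over brightness. Brightness was computed with Python 3.11.15 and NumPy 2.4.6. The scripts were tested on simulated data. Genes came from the platform annotation. Alternatives covered the dye term, array weights, normalization, thresholds, the sign readings, the suffix pair and each array left out. The members, the list of other splicing genes and the rules for naming spots (the 3 brightest of different genes per group, the smallest p, the most spots, genes not above background or with spots on opposite sides) were chosen with earlier results of these data known. Exceptions to these rules are other spots of the genes named, and members given as examples. Protein and probe sequences were not used here.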

Additional observations from a re-analysis of the deposited data

Results flagged for a closer look

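Of 42 sets of 5 array values tested, 3 had a lowest array whose gap to the next, over the whole range, exceeded Dixon's critical value of 0.71. Chance flags about 1 in 20 such sets. The deposited log2 ratio of the spot of Sf3b2 was -2.70 on cocaine-in-Cy5 replicate 1, and the next lowest was -0.33. The median deposited log2 ratio of the SF3 proteins was -1.23 on the same array, and the next -0.33. The median trend-removed log2 ratio of the snRNP proteins was -0.34 on cocaine-in-Cy3 replicate 1, and the next 0.00.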

How the results depend on the processing

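No feature passed the adjusted threshold in any setting except the reading of the sign by dye on deposited ratios, which called 34346; that reading also gave the members a trend-removed median of 0.09. The members' median kept its sign in all other settings, except on deposited ratios with cocaine-in-Cy5 replicate 1 turned (0.14, a setting chosen after seeing the data). Of 43790 features, 7456 had an unadjusted p under 0.05 with array weights, 10263 after quantile normalization and 1611 after median centring, against 998, and of the members 32, 50 and 6, against 1 (with no dye term 1082 features and 12 members). Leaving out 1 array gave 240 (0.548%) to 2437 features (5.57%) and 0 to 23 members (22.3%). The ends were without cocaine-in-Cy3 replicate 1 and cocaine-in-Cy5 replicate 1. Turning cocaine-in-Cy5 replicate 1 gave 107 features (0.244%). After removing the trend, array weights gave 945 of 4957 (19.1%), against 373 (7.52%), and 16 members (32.7%), against 6 (12.2%). No dye term gave 111 spots, and leaving out 1 array 46 to 531. Thresholds of 7 and 8 left 56 and 41 member spots. Over the 17 named spots, 198 of 233 alternative values kept their sign and 35 reversed, of which 0 passed the threshold; the cause was not tested. Under the dye reading Hnrnpk had 0.13, Hnrnpab 0.05, Snrpa 0.10, Srsf5 0.20, Srsf2 -0.18, Srsf9 -0.12, Sf3b6 0.36, Sf3a3 0.14, Snrpn -0.11 and Hnrnpa1 0.37. Without removing the trend Snrpg had -0.60, Snrpf -0.47, Srsf2 -0.48 and Srsf9 -0.32. With array weights Snrpg had -0.14, Snrpf -0.04 and Sf3b2 0.07. With the suffix pair averaged Snrpg had -0.03 and Sf3b2 0.02, and with cocaine-in-Cy5 replicate 1 turned Snrpg had -0.34, Snrpf -0.18 and Sf3b2 0.31. Without a dye term Srsf2 had 0.00 and Sf3b6 0.07, and with the trend fitted over all features Snrpg had -0.03 and Srsf2 -0.01. No paired analysis was possible because the labels give no replicate numbers shared between groups, beyond the pairing of a cocaine and a saline mouse within each array, which every ratio already holds. Leaving out 1 array in turn gave Snrpg from -0.15 to 0.09, Snrpf -0.03 to 0.10, Srsf2 -0.01 to 0.07, Sf3b6 -0.12 to 0.11 and Sf3b2 -0.14 to 0.12. Precision is limited by 5 arrays, by recovered brightness and by signals near background.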
